A study of Sus scrofa with 4 samples.

Results

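Heat shock proteins and their DNAJ partners are the molecular chaperones of the cell, and their mRNAs were followed here through the germ cells and somatic cells of the pig testis. Members were all features whose symbol in the deposited gene list begins with HSP90 or DNAJ, or with HSPA, HSPB, HSPD, HSPE or HSPH and a digit, which gave 61 of 31908 features. They comprise 3 HSP90 genes, 10 named HSPA (HSP70) and 1 named HSPH (HSP110). HSPA4 is an HSP110 despite its name. The others are HSPD1 and HSPE1 of the mitochondrial chaperonin, 6 small heat shock genes (HSPB) and 39 DNAJ genes. Of the DNAJ genes 4 are DNAJA, 10 DNAJB and 25 DNAJC. Testis cells of pigs aged 7, 30, 60 and 90 days were captured by droplet 3′ single-cell RNA sequencing, with 1 library per age. The labels give neither breed nor the number of animals behind a library, so age and library cannot be told apart and no test between ages was possible. Sequences of the members are not printed, because none were among the files used here.

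Chaperones of the HSP70 family bind unfolded protein and release it in a cycle driven by ATP. DNAJ proteins start that cycle by stimulating ATP hydrolysis, and HSP110 proteins and BAG proteins end it by exchanging the nucleotide. HSP90 takes late folding intermediates of kinases and receptors with the help of co-chaperones, HSP60 (HSPD1) with its lid HSP10 (HSPE1) folds proteins inside mitochondria, and small heat shock proteins hold unfolded protein without using ATP. The testis is known for germ cell forms of several of these families, since meiotic cells and spermatids build a flagellum and an acrosome and then repackage their chromatin.

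The measure is the unique molecular identifier (UMI), of which each captured mRNA molecule carries 1. UMIs were summed over the cells of a class and scaled to 1000000 UMIs of that class (CPM). Brackets hold exact Poisson intervals at 95%, which cover counting error only and not the spread between animals. Because UMIs count the 3′ ends of molecules, CPM is not divided by gene length, and levels of different genes also depend on how well each 3′ end is annotated. Cell classes were rebuilt from markers that include no member, cell by cell, against the free RNA expected in each droplet, and are called "-like". Of 12086, 14606, 10376 and 10901 cells used in order of age, 82.1%, 77.8%, 53.8% and 58.7% met the marker gate. Spermatogonia-like cells numbered 444, 706, 160 and 767. The 90-day library gave 136 spermatocyte-like, 381 round spermatid-like and 135 late spermatid-like cells. The gate also labelled 25, 31 and 24 cells as spermatocyte-like at 7, 30 and 60 days. It labelled 1 and 2 cells as round spermatid-like at 30 and 60 days. These younger groups were below the minimum of 50 cells per class and were not used.

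The classes carried their defining markers, as they must, since the gate chose cells by these markers. Spermatogonial markers summed to between 1929.9 and 2073 CPM in spermatogonia-like cells of the 4 ages and to 264 CPM in spermatocyte-like cells. Transition proteins, protamines and the other late spermatid markers summed to 107450.0 CPM in late spermatid-like cells. The 60-day library stood apart: 56 of its 160 spermatogonia-like cells lay in a shallow cluster of mixed content. The same cluster held 33 of its 86 Leydig-like, 427 of its 2180 stromal-like and 259 of its 2432 Sertoli-like cells. At 90 days late spermatid markers also summed to between 1435 CPM in spermatogonia-like and 5168 CPM in T/NK-like cells over the classes other than spermatids, whereas they summed to 93.6 and 38.5 CPM in those classes at 7 days. Between 78 and 115 cell barcodes were shared by any pair of libraries.

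No member had under 20 UMIs in all barcodes together, and 28 of the 61 reached at least 200 CPM in some class of at least 50 cells. The members together made up 2.17%, 1.96%, 1.63% and 1.19% of UMIs in spermatogonia-like cells at 7, 30, 60 and 90 days. In the later germ cells of the 90-day library the share was 1.77% in spermatocyte-like, 1.37% in round spermatid-like and 1.49% in late spermatid-like cells. Spermatogonia-like cells thus carried the highest share of any class at 7 days. The 3 leading members were HSP90AA1, HSP90AB1 and HSPA8 in spermatogonia-like cells at 7 days, HSP90AA1, HSPB9 and HSP90B1 in spermatocyte-like and round spermatid-like cells, and DNAJB8, HSPB9 and DNAJC5B in late spermatid-like cells. Those 3 held 59.3% of the member UMIs in late spermatid-like cells.

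**Figure D1:**
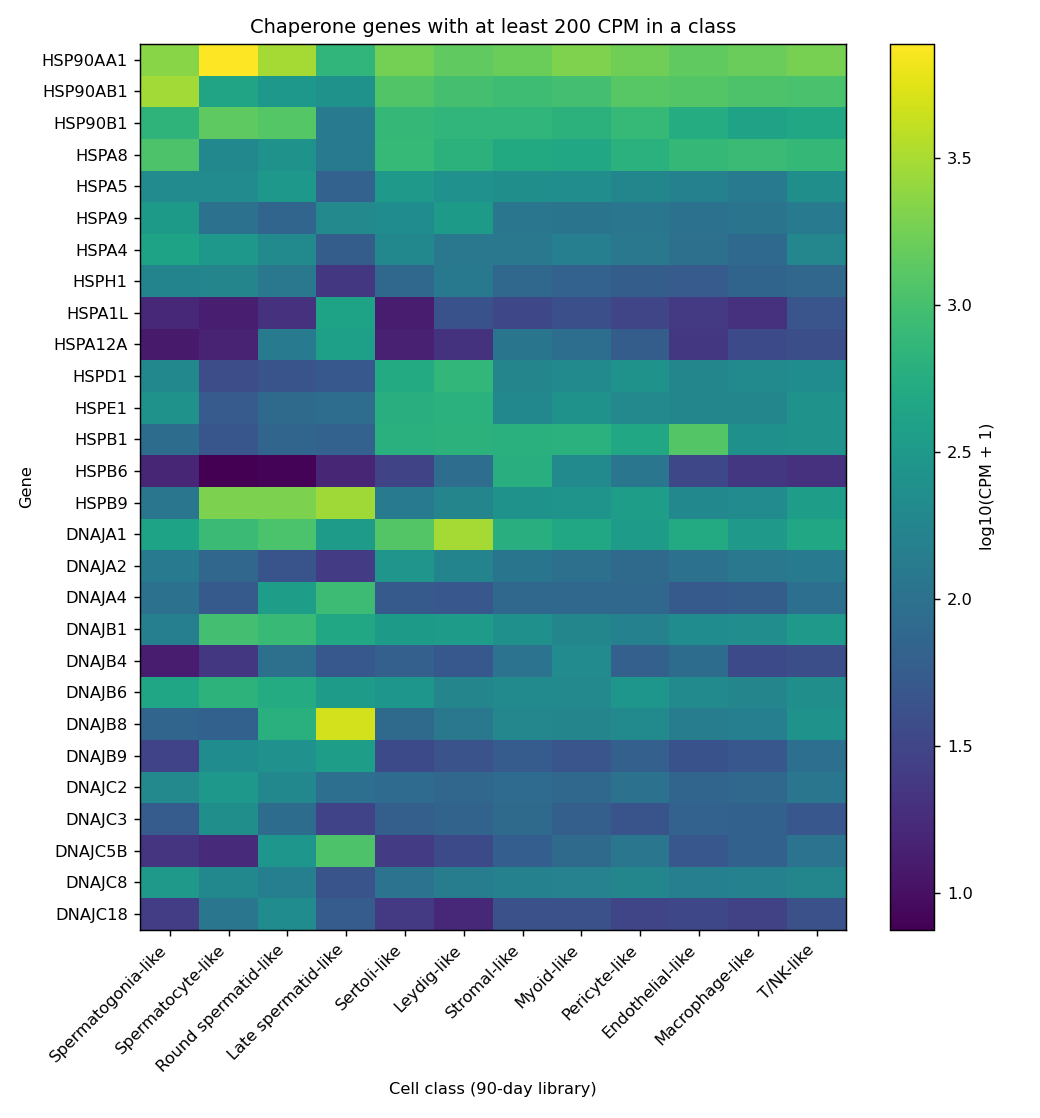
Levels of the 28 members with at least 200 CPM in a class, as log10(CPM + 1) in colour, for the 12 classes of the 90-day library (columns), with genes ordered by family (rows). The brightest cells are HSP90AA1 in spermatocyte-like cells (7696 CPM), DNAJB8 in late spermatid-like cells (4853 CPM), HSP90AA1 in round spermatid-like cells (3026 CPM) and DNAJA1 in Leydig-like cells (3024 CPM).

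From spermatogonia-like to spermatocyte-like cells HSP90AB1, HSPA8, HSPD1, HSPE1 and HSPA9 were lower, while HSP90AA1, HSPB9, HSP90B1 and DNAJC5G were among the members that were higher. A member was called when the class sums differed at least 2-fold with a 95% interval of the ratio that excluded no change, given at least 20 UMIs in both classes together. With 1 library per age this describes the libraries and is no test. Within the 90-day library 13 members of 56 measured were higher in spermatocyte-like than in spermatogonia-like cells and 13 were lower. Over all 14269 features measured, 18.6% were higher and 33.0% lower. The median log2 ratio was −0.24 over members and −0.51 over all features. TMM factors from edgeR raise every ratio of this comparison by 0.35, and 17 members were then higher and 10 lower, beside 23.4% and 24.6% of features.

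HSP90AB1, the constitutive cytosolic HSP90, was at 2932 CPM (2895 to 2969) in spermatogonia-like and 432 CPM (401 to 464) in spermatocyte-like cells. HSP90AA1, its stress-inducible paralog, went the other way within the same cells, from 2246 to 7696 CPM. The log2 ratios were −2.76 (−2.87 to −2.66) and 1.78 (1.74 to 1.81). Within the 90-day library the paralog with the higher level thus changed places between the stages. In spermatogonia-like cells at 7, 30 and 60 days HSP90AA1 was already the leading member, above HSP90AB1. HSPA8, the constitutive cytosolic HSP70, was at 1111 CPM in spermatogonia-like and 191 CPM in spermatocyte-like cells. HSPD1 and HSPE1 lie 520 bases apart on chromosome 15 (HSPD1 at 101360355 to 101373498 and HSPE1 at 101374019 to 101376146, Sscrofa11.1), and both were lower, with log2 ratios of −2.34 (−2.73 to −1.98) and −2.29 (−2.61 to −1.99). HSPA9, the mitochondrial HSP70, was lower as well, at 328 and 98.4 CPM. DNAJC6 (auxilin), which works with HSPA8 to strip clathrin coats, had 111 UMIs in spermatogonia-like cells and 0 in spermatocyte-like cells.

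Among the members that were higher, HSPB9, a small heat shock protein of the male germ line, was at 112 CPM (105 to 119) in spermatogonia-like and 1985 CPM (1918 to 2053) in spermatocyte-like cells. DNAJC5G, a testis form of the cysteine string protein, was at 5.08 and 104 CPM, with a log2 ratio of 4.35 (3.86 to 4.88). DNAJB13, a component of the radial spokes of the sperm axoneme, was at 5.8 and 91.9 CPM. All 3 were thus above their spermatogonial level in cells with meiotic markers. DNAJB2 was at 10.2 and 160.1 CPM, and DNAJB1, the main inducible HSP40, at 148 and 965 CPM. Among residents of the endoplasmic reticulum, HSP90B1 (GRP94), DNAJC3 (P58IPK), DNAJB9 (ERdj4) and DNAJC1 (ERdj1) were called higher, with log2 ratios of 1.04, 2.12, 2.87 and 3.87. The compartment did not move as one: DNAJC10 (ERdj5), which reduces disulfide bonds there, was called lower, at 110.0 and 29 CPM. HSPA5 (BiP), the HSP70 of that compartment, was at 212 and 214 CPM and was not called. Nor were all cytosolic members lower. HSPH1 (HSP110) was at 169.8 and 174 CPM, and DNAJA1 at 420.3 and 836 CPM, called higher only with TMM factors.

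**Figure D2:**
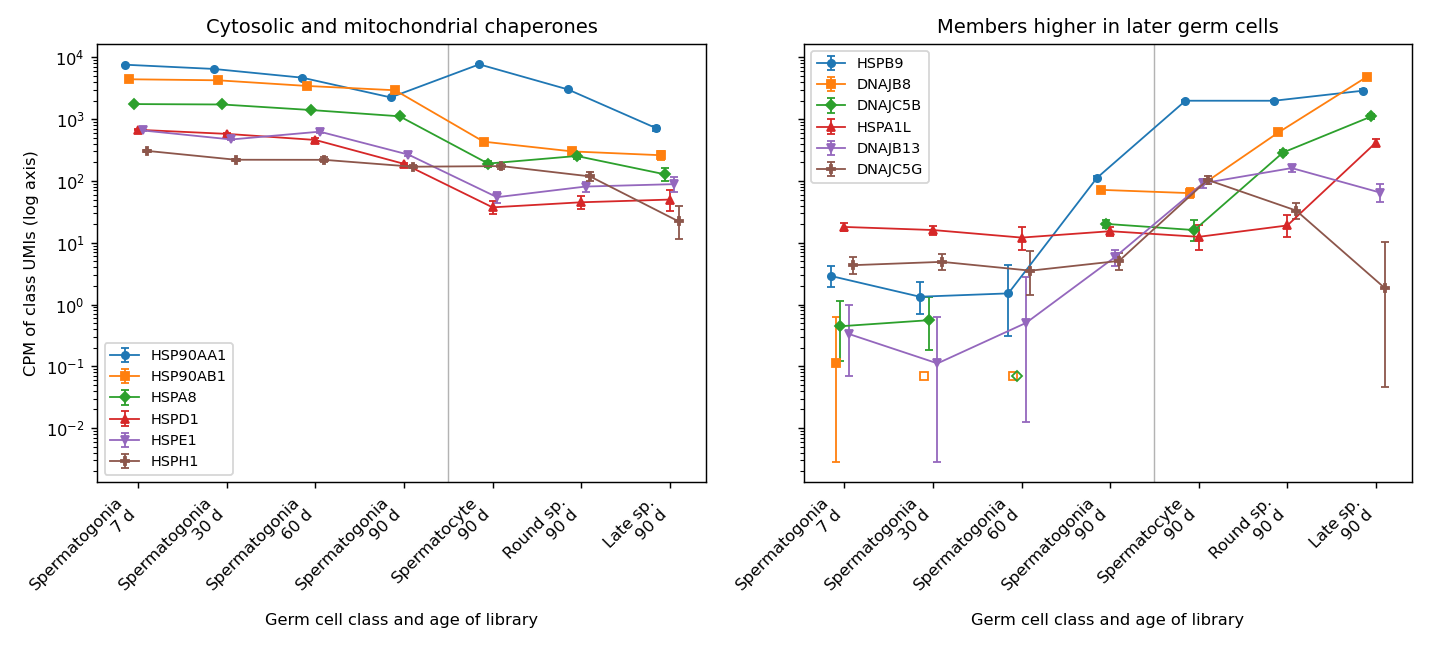
CPM (log axis) of 12 members in spermatogonia-like cells of the 4 libraries and in the 3 later germ cell classes of the 90-day library. Bars are exact Poisson intervals at 95%, lines join points only to guide the eye, and open symbols at the bottom stand for 0 UMIs. HSPB9 stands at 1985 and 1983 CPM in spermatocyte-like and round spermatid-like cells, and DNAJB8 reaches 4853 CPM in late spermatid-like cells.

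In round spermatid-like cells DNAJB8, DNAJC5B, DNAJC28, DNAJA4 and HSPA12A were higher than in spermatocyte-like cells, and HSP90AA1 and DNAJC5G were lower. Of 52 members measured, 9 were higher and 7 lower, beside 22.9% and 18.5% of features. The median was −0.08 over members and −0.15 over features, and TMM factors raised ratios by 0.12. DNAJB8, a testis-enriched DNAJ that suppresses protein aggregation (chromosome 13, 72010213 to 72015376), was at 63.4 CPM in spermatocyte-like and 609.6 CPM (569.6 to 652) in round spermatid-like cells. DNAJC5B, the testis cysteine string protein beta (chromosome 4, 68557670 to 68641134), was at 16 and 288 CPM. Both spermatocyte values lie below the 266 CPM of DNAJB8 and 104 CPM of DNAJC5B in T/NK-like cells of the same library. DNAJC28 was at 3.56 and 78.2 CPM, DNAJA4 at 52.8 and 369 CPM, and HSPA12A, an atypical HSP70, at 13.6 and 130.4 CPM. The other 4 called higher were DNAJB4, DNAJC24, DNAJC9 and DNAJC10. The log2 ratio of HSPB9 was 0.00 (−0.07 to 0.07), an interval that lies within 0.07 on either side of no change.

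Lower in round spermatid-like cells were HSP90AA1, at 7696 against 3026 CPM, and DNAJC5G, at 104 against 33.1 CPM. DNAJB12, a DNAJ of the endoplasmic reticulum membrane, DNAJC3 and DNAJB2 were lower too, with log2 ratios of −1.56, −1.46 and −1.26. DNAJC5G and DNAJC5B, testis relatives of DNAJC5, were thus highest in different stages: DNAJC5G in spermatocyte-like cells and DNAJC5B in late spermatid-like cells.

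In late spermatid-like cells HSPA1L, DNAJB8 and DNAJC5B were higher than in round spermatid-like cells, while HSP90B1, HSPA5 and HSP90AA1 were lower. Of 51 members measured, 9 were higher and 22 lower than in round spermatid-like cells, beside 11.9% and 42.4% of features. The medians were −0.90 over members and −0.91 over features, so the median member was lower by about as much as the median feature. TMM factors raised every ratio by 0.83, and 14 members were then higher and 10 lower, beside 20.4% and 18.9% of features. The 9 higher and 10 of the 22 lower members were called under both scalings. With the mean over cells in place of the sum, 4 of the 9 and 17 of the 22 stayed called. Clusters in place of the marker gate kept 7 and 19 of them, and a gate with 1 more marker 7 and 20.

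HSPA1L, the HSP70 of spermatids (chromosome 7, 23909960 to 23938678), was at 19 CPM (12.5 to 27.7) in round spermatid-like and 418 CPM (365 to 476) in late spermatid-like cells, and at 12.4 CPM in spermatocyte-like cells. It therefore stood out in the last stage only, later than HSPB9, DNAJB13 and DNAJC5G. HSPA1L, HSPA6 and HSPA8 resemble each other and the other HSP70 genes in sequence, and the split of reads between them by the authors' counting is uncertain. DNAJB8 went from 609.6 to 4853 CPM (4669 to 5042), the highest level of any member in this class. DNAJC5B, HSPA12A and DNAJA4 were higher again, with log2 ratios of 1.94, 1.53 and 1.22. HSPA9 was also called higher, at 70.5 and 194 CPM. DNAJC22 was measured with 22 UMIs in late and 9 in round spermatid-like cells, a log2 ratio of 2.68 (1.5 to 3.98).

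HSP90B1 was at 1243 CPM in round and 129 CPM in late spermatid-like cells, a log2 ratio of −3.27 (−3.63 to −2.92). HSPA5 was at 304 and 64.7 CPM, so that the paired HSP90 and HSP70 of the endoplasmic reticulum were both lower. HSPH1, HSP90AA1 and DNAJA1 followed, with log2 ratios of −2.42, −2.09 and −1.69. All of these stayed called with TMM factors except DNAJA1. HSPA4, also an HSP110, was at 206 and 57.3 CPM.

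Shares of cells with a UMI followed the same order. DNAJB8 was detected in 91.9% (85.9 to 95.9) of late spermatid-like and 71.9% (67.1 to 76.4) of round spermatid-like cells (exact Clopper-Pearson intervals at 95%). In T/NK-like cells, which should lack it, the share was 32.4% (26.8 to 38.5). Median depth was 1681 UMIs in late spermatid-like, 2238 in round spermatid-like and 1313 in T/NK-like cells. After thinning each cell to 2000 UMIs, which kept 61, 218 and 39 of these cells, the shares were 96.7%, 64.2% and 25.6%. HSPA1L was detected in 48.1% of late spermatid-like, 6.82% of round spermatid-like and 7.25% of T/NK-like cells, so the round spermatid share lay at the T/NK background. DNAJB13 after thinning was detected in 28% (22.1 to 34.4) of round spermatid-like and 7.69% (1.62 to 20.9) of T/NK-like cells. In spermatogonia-like cells the unthinned share of DNAJB8 was 54% at a median of 10214 UMIs, and 13.2% after thinning, at or below the T/NK background.

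DNAJB8, HSPB9 and DNAJC5B, all high in late spermatid-like cells, had UMIs in every class of the 90-day library and stood at no more than 2.89 CPM in any class of the younger ones. HSPA12A, also high in late spermatid-like cells, was measured in younger libraries too, at 41.7, 52.2 and 96.7 CPM in stromal-like cells. DNAJB8 had 0 UMIs in T/NK-like cells at 7, 30 and 60 days and 266 CPM at 90 days. It had between 63.4 CPM in spermatocyte-like and 266 CPM in T/NK-like cells across the 90-day classes other than spermatids. HSPB9 had 0 UMIs in T/NK-like, macrophage-like, endothelial-like, myoid-like and Leydig-like cells of the younger libraries, and 356, 213, 188, 272 and 173 CPM there at 90 days. Expressed as a share of the late spermatid level, DNAJB8 in T/NK-like cells was 5.49% and in Sertoli-like cells 1.69%. The sperm chromatin genes TNP1 and PRM1 stood at 4.58% and 4.03% in T/NK-like and at 1.37% and 1.3% in Sertoli-like cells. A mixture of the round and late spermatid profiles fitted to 8 spermatid genes that are no members accounted for an estimated 4.24% of UMIs in Sertoli-like, 7.64% in Leydig-like, 11.7% in stromal-like and 4.39% in spermatogonia-like cells at 90 days. Comparisons of 90 with 7 days below are given with this spermatid RNA in place and after its subtraction. Free RNA of spermatocytes was not part of the fit and was not subtracted.

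**Figure D3:**
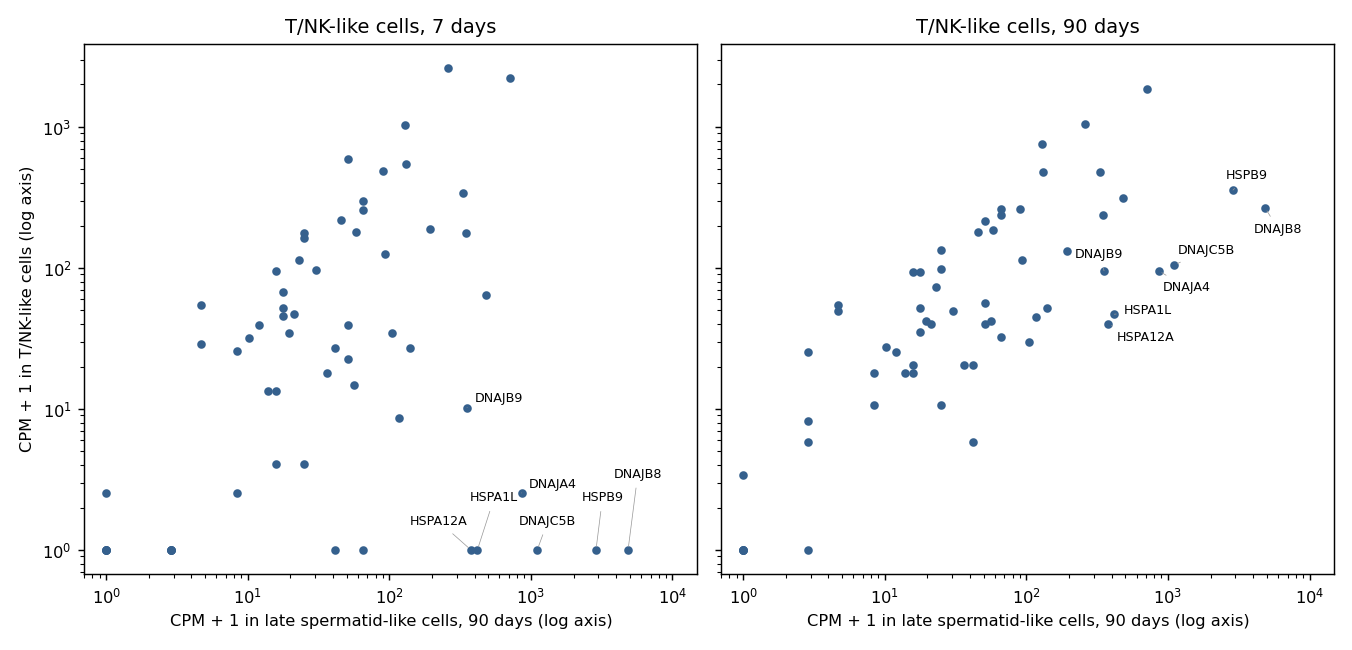
Each point is a member, with its level in late spermatid-like cells at 90 days on the x axis and in T/NK-like cells on the y axis (CPM + 1, log axes), for T/NK-like cells at 7 days (left) and 90 days (right). DNAJB8, HSPB9, DNAJC5B, HSPA1L and HSPA12A lie at 0 CPM in T/NK-like cells at 7 days and between 38.7 and 356 CPM at 90 days.

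Spermatogonia-like and Sertoli-like cells could be compared 4 times, since both were present in each library, and each comparison is then free of the difference between libraries. Members were higher in spermatogonia-like cells for 23, 18, 20 and 15 of 56, 54, 53 and 58 measured, in order of age, and lower for 8, 8, 7 and 13. Of all features, 44.6%, 44.7%, 33.9% and 28.6% were higher and 13.9%, 15.1%, 15% and 21.2% lower. TMM factors lower the ratios by 0.77, 0.74, 0.55 and 0.26. Scaled that way 10, 8, 8 and 8 members were higher and 14, 16, 11 and 14 lower. Over features the shares were then 31.3%, 32%, 22.7% and 23.1% higher and 26.4%, 27%, 24.2% and 24.9% lower.

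In all 4 libraries 7 of 52 members were called higher in spermatogonia-like cells and 3 lower, beside 17.4% and 8.73% of 14042 features. The 7 were DNAJC6, HSPA4, DNAJC2, DNAJC27, HSP90AB1, HSPH1 and HSPA14. The HSP110 genes HSPA4 and HSPH1, and HSPA14 and DNAJC2 of the ribosome-associated pair that receives nascent chains, were thus among them. With TMM factors DNAJC6 alone of these was called in all 4 libraries, and 7 members were lower, beside 10.7% and 14.7% of features. Without the 90-day library the counts were 14 higher and 5 lower. No share over features is given for them, so whether they depart from features at large cannot be told.

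DNAJC6 was at 24.9, 21.4, 26.2 and 13.4 CPM in spermatogonia-like and 0.48, 0.329, 1.74 and 1.33 CPM in Sertoli-like cells at 7, 30, 60 and 90 days. HSPA4 was at 731, 622, 602 and 422 CPM and 131, 142, 121 and 192 CPM in the same order. HSPA14 was at 66, 61.9, 66.1 and 157 CPM in spermatogonia-like and 29.2, 23.5, 29.2 and 29.6 CPM in Sertoli-like cells. For each of the 3 genes the lowest spermatogonial value lay above the highest Sertoli value, and HSPA14 was highest in spermatogonia-like cells at 90 days where the others were lowest. HSP90AB1 was at 4416, 4249.6, 3445 and 2932 CPM against 2084, 1610.5, 1282 and 1161 CPM.

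The 3 members lower in spermatogonia-like cells of every library were HSPB1 (HSP27), HSPB6 (HSP20) and DNAJB4, and they were also lower with TMM factors. HSPB1 was at 626, 526, 454 and 85.3 CPM in spermatogonia-like and 2371, 2355, 1576 and 619 CPM in Sertoli-like cells. DNAJB4 was at 9.55, 8.24, 25.2 and 12.2 CPM against 85.3, 103, 122 and 61.9 CPM. The 4 further members that TMM factors add as lower in every library are DNAJC25, HSPA13, DNAJB14 and DNAJA1. DNAJA1 was at 600.4, 493, 451 and 420.3 CPM in spermatogonia-like and 1011, 1216, 1374 and 1199 CPM in Sertoli-like cells. Immediate early genes, which dissociation of tissue induces, differed between the classes as well. They summed to 851, 742, 2462 and 798 CPM in spermatogonia-like and to 18193, 16989, 24024 and 7122 CPM in Sertoli-like cells, and 17 to 21 of them were lower in spermatogonia-like cells of each library. Their part in the difference of chaperone mRNA was not tested.

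**Figure D4:**
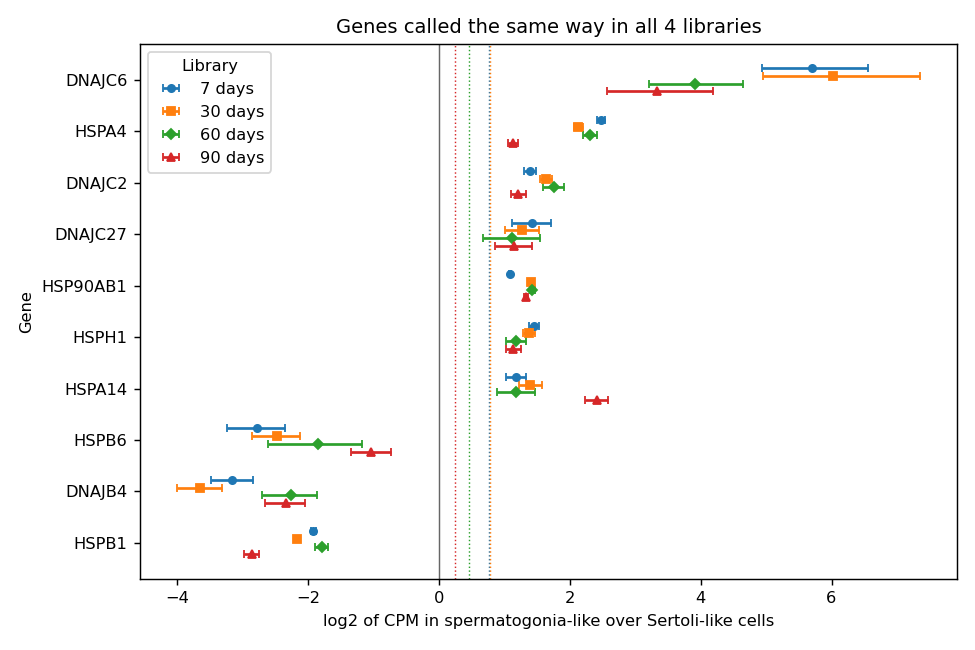
Log2 ratio of CPM in spermatogonia-like over Sertoli-like cells (x axis) for the 10 members called the same way in all 4 libraries, with intervals of the ratio at 95% for counting error. Dotted lines are the median of all features per library, from 0.24 at 90 days to 0.78 at 30 days, and HSPB6, DNAJB4 and HSPB1 lie below 0 in each library.

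Spermatogonia-like cells of the 90-day library had lower HSP90AA1, HSPD1, HSPE1 and HSPB1 than those of the 7-day library. The class lay in different clusters at the 2 ages. Of its 444 cells at 7 days, 233 and 211 lay in germ clusters 1 and 3, and of its 767 cells at 90 days, 752 and 15 lay in germ clusters 0 and 4, which held none from the younger libraries. Of 58 members 10 were higher and 9 lower at 90 days, beside 12.8% and 27.4% of features, with medians of −0.20 over members and over features. With TMM factors, which raise the ratios by 0.19, 13 were higher and 7 lower, beside 16.6% and 23.6% of features. HSP90AA1 was at 7597, 6492, 4689 and 2246 CPM at 7, 30, 60 and 90 days, lower at each later age, and the log2 ratio between the last and first library was −1.76 (−1.78 to −1.73). HSP90AB1 was at 4416, 4249.6, 3445 and 2932 CPM and was not called.

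HSPB1 in spermatogonia-like cells was at 626, 526, 454 and 85.3 CPM and DNAJC1 at 67.2, 56.7, 61.5 and 7.25 CPM, and for both the 90-day value stood far below the other 3. HSPD1 was at 672, 577, 459.9 and 189 CPM and HSPE1 at 656, 468, 627 and 267 CPM. DNAJC5, the cysteine string protein of secretory vesicles, was at 131, 180.2, 147 and 39.2 CPM. Spermatogonial markers were at 1979 CPM at 7 days and 1944 CPM at 90 days, and spermatocyte markers at 899 and 1055 CPM. The gate used these markers, so their similar sums cannot show that the cells were at the same stage. HSPA14 was among the members that were higher, at 66, 61.9, 66.1 and 157 CPM. DNAJC19, of the mitochondrial import motor, was higher at 28.5, 31.6, 44.9 and 59.6 CPM. Of the 10 higher members 6 remained called after subtraction of spermatid RNA, HSPA14 and DNAJC19 included, beside 10.5% of features higher after it. HSPB9 went from 112 to 16.5 CPM against 2.89 CPM at 7 days.

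In Sertoli-like cells, the nurse cells of the tubule, HSPB1 was lower and HSPA6 higher at 90 than at 7 days under each of the settings given below. Of 4594 cells at 7 days 3726 lay in cluster 1, and of 1336 at 90 days 1329 lay in cluster 8. Of 59 members 16 were higher and 4 lower at 90 days, beside 28.3% and 13.6% of features, and the medians were 0.20 over members and 0.28 over features. TMM factors lower the ratios by 0.27, after which 9 were higher and 9 lower, beside 23.1% and 17.9%. HSPB1 was at 2371, 2355, 1576 and 619 CPM at 7, 30, 60 and 90 days, with a log2 ratio of −1.94 (−1.97 to −1.90). Endothelial markers, from a class rich in HSPB1, summed to 53.5 CPM in Sertoli-like cells at 7 days and 28.5 CPM at 90 days. DNAJC15, of the inner mitochondrial membrane, was at 56.7, 48.7, 29.8 and 24.1 CPM, lower at each later age, and DNAJC1 at 77.4, 75.2, 63.9 and 32.6 CPM. HSPB7 was called lower too, with 62 UMIs at 7 and 2 at 90 days.

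DNAJB1 in Sertoli-like cells was at 144, 268, 165 and 329 CPM, high at 30 and 90 days and low at 7 and 60 days. Between the first and last library its log2 ratio was 1.19 (1.13 to 1.25) and 1.11 after subtraction of spermatid RNA, and it was not called with TMM factors. HSPA6, a strictly inducible HSP70, was at 1.66, 6.58, 10.5 and 16.2 CPM, and its ratio of 3.28 (2.83 to 3.75) was called under each of these settings. Immediate early genes were lower at 90 days for 13 of 22 in this class, and none was higher. Of the 16 higher members 12 remained called after subtraction, beside 24.2% of features higher after it. DNAJB8 was then at 9.22 CPM in place of 82.2 and HSPB9 at 35.1 in place of 128 CPM, while DNAJA4, DNAJB9, DNAJB13 and DNAJC28 were no longer called. HSPB9 and DNAJC5G, both high in spermatocyte-like cells, were among the 12, and the part of free spermatocyte RNA in them was not tested. HSP90AA1 at 2870.5, 2718, 2353 and 1819 CPM, HSP90AB1 at 2084, 1610.5, 1282 and 1161 CPM and HSP90B1 at 1480.5, 977, 813 and 769 CPM were each lower by less than 2-fold. HSPA5 was at 591, 427, 336 and 308 CPM, likewise short of 2-fold. With TMM factors HSP90AB1, HSP90B1 and HSPA5 were called lower, as were DNAJC10 and DNAJC17.

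Leydig-like cells, the androgen-producing cells between the tubules, showed the largest chaperonin difference of the somatic classes compared. Cluster 14 held all 362 of these cells at 7 days and 242 of 244 at 90 days. At 60 days it held 53 of 86, and 33 lay in the cluster of mixed content. Of 53 members 11 were higher and 5 lower at 90 than at 7 days, beside 24.4% and 6.79% of features, with medians of 0.24 and 0.40. TMM factors lower the ratios by 0.42, and 7 were then higher and 10 lower, beside 14.2% and 13.3%. HSPD1 was at 3175, 1459, 923 and 732 CPM at 7, 30, 60 and 90 days and HSPE1 at 2378, 1415, 911 and 634 CPM, with the value of each age below the one before. The log2 ratios were −2.12 (−2.24 to −2) and −1.91 (−2.03 to −1.78). At 7 days both levels were the highest in any class of that library, and at 90 days HSPD1 of Leydig-like cells was 732 against 523 CPM in Sertoli-like cells. DNAJC15, also mitochondrial, was at 199, 85, 50.8 and 29.3 CPM, with a log2 ratio of −2.77 (−3.40 to −2.19) whose interval overlaps that of HSPD1. HSPA9 was at 614, 419, 336 and 331 CPM and was not called at 2-fold, but was called with TMM factors, as were HSP90AA1, DNAJC1, DNAJA3 and DNAJC19.

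DNAJA1, a cytosolic partner of HSPA8, was at 1584, 1324, 2002 and 3024 CPM in Leydig-like cells. Its log2 ratio of 0.93 (0.87 to 1) fell just short of the 2-fold limit, and at 90 days it was the leading member of this class, ahead of HSP90AA1 at 1430.4 CPM. Among the 5 lower members were also HSPB8, at 47, 8.97, 15.6 and 21.1 CPM, and DNAJC12, at 22.3, 13, 19.6 and 3.51 CPM. Leydig markers of this class were at 69430.0, 68162, 21120.0 and 35492 CPM over the ages, and the 60-day value rests on 86 cells. Sertoli markers there were at 7446 CPM at 7 days and 2119 CPM at 90 days, mostly GSTA1 (5430 and 788 CPM), and the part of these shifts in the member ratios was not tested. Immediate early genes were higher at 90 days for 12 of 19 and lower for none. After subtraction of spermatid RNA 3 of the 11 higher members remained called: DNAJB5, DNAJC27 and HSPA1L. In all 4 members were then higher, beside 20.7% of features. DNAJB8, which was at least 164-fold higher at 90 days when its 0 UMIs at 7 days are set to a floor of 3 over the class, was at 2.52 CPM after subtraction.

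**Figure D5:**
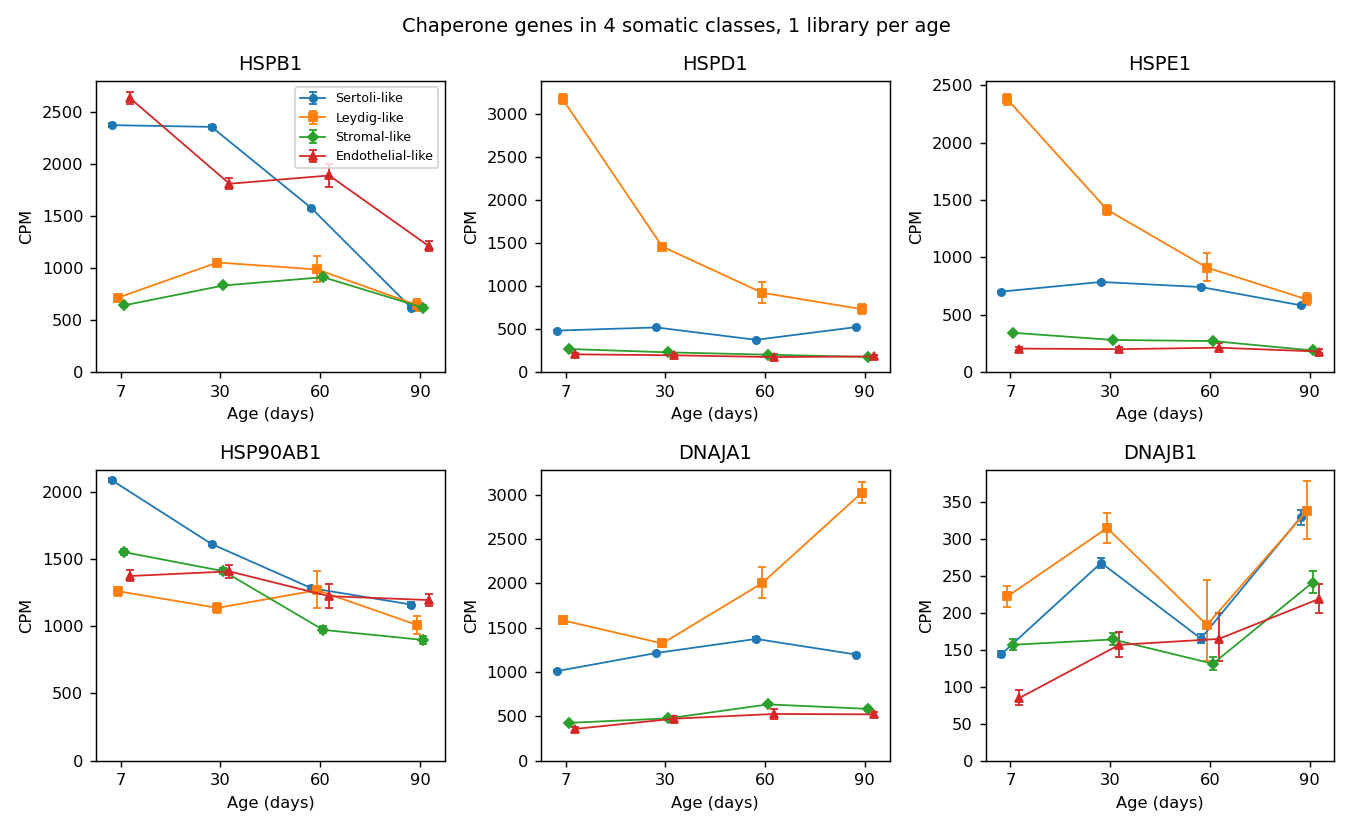
CPM (linear axes from 0) of HSPB1, HSPD1, HSPE1, HSP90AB1, DNAJA1 and DNAJB1 by age in Sertoli-like, Leydig-like, stromal-like and endothelial-like cells, 1 library per age, with exact Poisson intervals at 95%. HSPD1 and HSPE1 decline with age in Leydig-like cells, HSPB1 is 619 CPM in Sertoli-like cells at 90 days, and DNAJA1 is 3024 CPM in Leydig-like cells at 90 days.

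Stromal-like cells, the fibroblast-like cells of the interstitium, had 15 of 57 members higher and 1 lower at 90 than at 7 days, beside 28.1% and 6.34% of features. The medians were 0.29 over members and 0.43 over features. TMM factors lower the ratios by 0.41, and 10 members were then higher and 8 lower, beside 20% and 11.5%. Lower only with TMM factors were HSPD1, HSPE1, HSP90AB1, HSP90B1, HSPA13, DNAJC15 and DNAJC1. Of 3179 cells at 7 days 2967 lay in cluster 4, and of 1855 at 90 days 1835 lay in cluster 9. HSPB6, which holds unfolded protein in muscle and related cells, was at 259, 371, 357 and 593 CPM at 7, 30, 60 and 90 days, the highest of the classes at each age. Its log2 ratio of 1.19 (1.12 to 1.27) was called before and after subtraction of spermatid RNA, but not with TMM factors. HSPA12A was at 41.7, 52.2, 96.7 and 109.8 CPM, higher at each later age, and HSPA12B at 20.5, 23.3, 24.3 and 46.2 CPM. DNAJA4 was at 9.13, 14.7, 21.9 and 76.8 CPM and 23 CPM at 90 days after subtraction. Of the 15 higher members 8 remained called after subtraction, beside 22.6% of features higher after it. DNAJB8, DNAJB9, DNAJB13, DNAJC28, DNAJC5B, DNAJC5G and HSPB9 were no longer called. The 1 lower member was DNAJC12, with 87 UMIs at 7 and 9 at 90 days.

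Called higher at 90 days in Sertoli-like, Leydig-like and stromal-like cells alike were 8 members: DNAJB8, HSPA12A, DNAJB2, DNAJC5B, HSPA1L, DNAJA4, HSPB9 and DNAJB9. At 90 days each of them was higher in late spermatid-like cells than in any somatic class. These 3 comparisons use the same pair of libraries, so the overlap is stated only as a description. HSPA1L alone of them remained called in all 3 classes after subtraction of spermatid RNA, at 7.13, 36.5 and 22.2 CPM against 0.416, 0.72 and 0.621 CPM at 7 days.

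Other somatic classes were not compared between ages, and levels of members in them are given as a description. HSPB1 in endothelial-like cells was at 2633, 1809, 1888 and 1209 CPM at 7, 30, 60 and 90 days, the highest of all classes in the 7-, 60- and 90-day libraries. HSPA12B, a vascular HSP70 relative, was at 30.1, 41.8, 24 and 55.4 CPM in endothelial-like and 0.808, 0, 1.54 and 0 CPM in macrophage-like cells. It was not limited to the endothelium: stromal-like cells were at 20.5, 23.3, 24.3 and 46.2 CPM. HSPB7, a small heat shock gene of muscle, was at 36.2, 49.4 and 89.7 CPM in myoid-like cells at 7, 30 and 90 days and at most 7.51 CPM in any other class at 90 days. Myoid-like cells, the contractile sheath of the tubule, also carried HSPB8 at 49.8, 49.4 and 38.5 CPM and DNAJB4 at 163, 173 and 212 CPM, beside 129, 175 and 104 CPM of DNAJB4 in stromal-like cells. DNAJC25 was at 42.3, 106, 84.5 and 35 CPM in macrophage-like and 27.7, 69.5, 73.4 and 48.4 CPM in T/NK-like cells. DNAJC5 was at 93.9, 107, 98.6 and 92 CPM in T/NK-like cells, below the spermatogonial value at 7, 30 and 60 days and above it at 90 days. HSP90AB1 in T/NK-like cells was at 2613, 1704, 908 and 1050.5 CPM, below the spermatogonial value at each age, with the 60-day value the lowest and the 7-day value the highest.

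Partner genes outside the family names were counted with the same call rule. Of the HSP90 co-chaperones 10 of 18 were higher in spermatogonia-like than Sertoli-like cells in each of the 4 libraries, beside the 28.6% to 44.7% of features given above. Their median log2 ratios were 1.19, 1.14, 1.11 and 1.05 in order of age, against 0.77, 0.78, 0.46 and 0.24 over all features. Those of the 7-day library were STIP1, AHSA1, PTGES3, CHORDC1, PPID, FKBP4, SUGT1, TTC4, TOMM34 and UNC45B. Subunits of the cytosolic chaperonin CCT and of prefoldin, which fold actin and tubulin, were higher for 11, 9, 10 and 8 of 13. Heat shock factors and their regulators were higher for 5, 5, 5 and 3 of 6, and mitochondrial quality control genes for 7, 7, 7 and 3 of 10. HSP70 co-chaperones and exchange factors were higher for 8, 6, 5 and 4 of 17. Endoplasmic reticulum folding genes, counted by feature, were higher for 5, 5, 7 and 3 and lower for 7, 6, 5 and 6 of 22, 23, 22 and 22. In this list DDIT3 counts as separate features, called in opposite directions at 60 days and each lower at 90 days. The medians of that list lay below no change, at −0.39, −0.42, −0.06 and −0.05. These list counts were made without TMM factors. HSF2, a factor of germ cells, was at 394 CPM in spermatogonia-like and 61.1 CPM in Sertoli-like cells at 7 days. From round to late spermatid-like cells 42.4% of features were lower. Among the lists, 10 of 12 CCT and prefoldin genes, 10 of 15 HSP90 co-chaperones and 12 of 20 endoplasmic reticulum folding genes were lower. HSP70 co-chaperones and exchange factors had 6 of 15 lower and 2 higher. Mitochondrial quality control genes had 2 of 10 lower and 2 higher, and heat shock factors and their regulators 4 of 6 lower and 0 higher.

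From spermatogonia-like to spermatocyte-like cells the HSP90 co-chaperones split into 3 higher and 6 lower of 17, near the 18.6% and 33.0% of all features. The endoplasmic reticulum list split into 6 higher and 4 lower of 21. CLGN (calmegin), a chaperone of sperm surface proteins, was at 385 and 2197 CPM. Heat shock factors and their regulators counted 2 higher (HSBP1 and HSF5) and 1 lower (HSF2) of 6, with HSF5 at 18.7 and 267 CPM. CCT and prefoldin genes counted 3 higher and 1 lower of 12. HSP70 co-chaperones and exchange factors counted 3 higher and 3 lower of 17, and mitochondrial quality control genes 0 higher and 2 lower of 10. For 90 against 7 days, the endoplasmic reticulum list had 5 of 23, 5 of 19 and 6 of 22 genes higher in Sertoli-like, Leydig-like and stromal-like cells, beside 28.3%, 24.4% and 28.1% of features. In Sertoli-like cells 3 of its genes, PDIA3, PDIA4 and ATF4, were lower, and in the other two classes none was. CALR3 and CLGN were higher in all 3 classes, and CLGN was at 254 CPM in T/NK-like cells at 90 days. CRYAB, a small heat shock protein named outside the rule, was at 280.5, 216 and 103 CPM in myoid-like cells at 7, 30 and 90 days.

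Levels of the members not yet described varied widely. Of the 61, 21 peaked between 50 and 200 CPM and 12 below 50 CPM. DNAJC8, which binds the spliceosome, was at 322 CPM in spermatogonia-like cells at 90 days and between 44.3 and 189.7 CPM in the other classes of that library. DNAJB6, an inhibitor of aggregation, was at 600.2, 622, 525 and 452 CPM in spermatogonia-like and 174, 192, 215 and 289 CPM in Sertoli-like cells. DNAJA2 was at 299, 261, 194 and 134 CPM in spermatogonia-like cells, and at 90 days at 72.9, 45.1 and 24 CPM in the successive later stages. DNAJC7, DNAJA3 and HSPA14 were highest at 90 days in spermatogonia-like cells, DNAJC2, DNAJC3 and DNAJB12 in spermatocyte-like, DNAJC18 and DNAJC24 in round spermatid-like, DNAJC9, DNAJC14 and DNAJC22 in late spermatid-like and DNAJC10 in myoid-like cells. DNAJC9, a chaperone of histones, was at 11.9, 45.8 and 103 CPM in spermatocyte-like, round and late spermatid-like cells. DNAJC11, DNAJC13, DNAJC16, DNAJC17, DNAJC27, DNAJB5, DNAJB14 and HSPA13 had intervals at 90 days that overlapped those of the next class in order. HSPB3 had 105 UMIs in all barcodes and at most 3.09 CPM in any class.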

How the data were processed

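The files hold raw UMI counts per feature and barcode, which the authors deposited without normalization. They were made with Cell Ranger 5.0.1 per the file headers, and the submitters' processing notes name bcl2fastq, Scanpy 1.7.1 and build Sscrofa11.1. No normalized values were used. The 4 libraries held 15896, 19373, 16839 and 17494 barcodes and 96133720, 77992845, 45717373 and 64372068 UMIs in order of age, and the labels name 86453 captured cells.

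Barcodes with at least 1000 UMIs, 500 genes and at most 15% of UMIs from 13 mitochondrial genes were kept (13847, 17285, 11991 and 12675). Doublets were removed per library as the top Scrublet scores, 0.8% per 1000 barcodes. A marker counted as present above the 99% Poisson quantile of free RNA, set at 20% of a cell's UMIs with the library profile, or 100% for spermatocyte and spermatid markers. A class needed 3 present markers (4 for late spermatids) and at least 2 times those of any rival, limits set after seeing the data. Leiden clusters made without the members served as an alternative.

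Counts were summed per class and library, with exact Poisson and conditional binomial intervals, checked on simulated counts. The members and lists were chosen with earlier results of these data known. Named in full were members with at least 200 CPM in a class and, per comparison, up to 5 in each direction, ranked by the end of the interval closest to an equal level, with at least 50 CPM. Others named were chosen after their values were seen. A reference table gave symbols to 825 of 15400 features listed by identifier only, and positions of 59 members came from the RefSeq gene table of Sscrofa11.1.

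TMM factors came from edgeR 4.0.16 in R 4.3.3, and all else from Scanpy 1.11.5, leidenalg 0.10.2, SciPy 1.17.1, pandas 2.3.3, NumPy 2.4.6 and matplotlib 3.10.9 in Python 3.11.15.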

Additional observations from a re-analysis of the deposited data

Results flagged for a closer look

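HSPB7, a small heat shock gene of muscle, moved in opposite directions in 2 somatic classes between the 7-day and 90-day libraries. The log2 ratio of the later to the earlier library was −3.57 (−6.65 to −1.66) in Sertoli-like cells, from 62 and 2 UMIs. In stromal-like cells it was 1.12 (0.40 to 1.83), from 39 and 32 UMIs. The difference between the classes was not tested. Levels were at most 7.51 CPM in both classes, against 36.2 and 89.7 CPM in myoid-like cells at 7 and 90 days. Myoid markers summed to 1155 and 561 CPM in Sertoli-like cells and to 1346 and 840.3 CPM in stromal-like cells at those ages, and their part in the HSPB7 values was not tested.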

How the results depend on the processing

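Member counts were recomputed with named clusters in place of the gate, 1 more marker, TMM factors, the mean over cells, no doublet removal, the automatic doublet threshold, stricter cell filters, no count minimum, 10% free RNA subtracted and, chosen after seeing the data, spermatid RNA subtracted at 90 days. TMM factors changed the counts higher and lower to 14 and 10 for late against round spermatid-like cells, 9 and 9 for Sertoli-like, 7 and 10 for Leydig-like and 8 lower for stromal-like cells between 90 and 7 days, and 1 and 7 for spermatogonia-like against Sertoli-like cells in all libraries. Within the 7-, 30-, 60- and 90-day libraries they gave 10, 8, 8 and 8 higher, from 23, 18, 20 and 15, and 14, 16, 11 and 14 lower, from 8, 8, 7 and 13. Spermatid RNA subtracted left 4 higher in Leydig-like, 8 higher and 2 lower in stromal-like and 6 higher in spermatogonia-like cells. Of features, 20.7%, 22.6% and 10.5% were then higher in these classes. The mean over cells gave 12 lower for round spermatid-like against spermatocyte-like cells, where the sum gave 7. Without the 90-day library (chosen after seeing the data), 14 were higher and 5 lower in spermatogonia-like than Sertoli-like cells of the other 3. These counts have no share over features beside them and cannot be set against a background. The cause was not tested. Counts within single libraries were recomputed with TMM factors alone. Other counts stayed within 1.5 times, though the members behind a count could differ. No ratio of a named member changed sign: of 1064 recomputed ratios 788 moved by less than their counting interval and 276 by more. Depth limits members at few UMIs, such as DNAJC22 and HSPB7. No paired analysis was possible because each age has 1 library.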

Other observations

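Some chaperone genes fall outside the naming rule because the files list them under another name. HSP70.2, given by the reference table as a name of an inducible HSP70 gene, was at 108, 116, 137 and 251 CPM in Sertoli-like cells at 7, 30, 60 and 90 days, and the last value over the first gave a log2 ratio of 1.21. In spermatogonia-like cells it was at 192, 114, 140.2 and 72.6 CPM. It was thus higher with DNAJB1 and HSPA6 in Sertoli-like cells at 90 days, and lower in spermatogonia-like cells. The ratio of HSP70.2 is given without TMM factors, which lower ratios in Sertoli-like cells by 0.27. With them HSPA6 stayed called and DNAJB1 did not. A feature that the files call PLK4 and the reference table calls HSPA4L was at 92.4, 465, 316 and 791 CPM from spermatogonia-like to late spermatid-like cells at 90 days. HSPA4L is an HSP110 of germ cells and PLK4 a kinase of centriole duplication, and which of them the feature measures was not settled here. DNAJB11, of the endoplasmic reticulum, was at 64.9, 98.4, 96.5 and 35.1 CPM over the same stages. DNAJC4 was at 35.9 CPM in spermatogonia-like and 67.2 CPM in Sertoli-like cells at 90 days.

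CLPB, a mitochondrial disaggregase, and CCT6B, a testis subunit of the chaperonin, peaked in different germ stages. CLPB was at 119, 329 and 733 CPM and CCT6B at 362, 256 and 27.7 CPM in spermatocyte-like, round and late spermatid-like cells. In T/NK-like cells they were at 92 and 41.1 CPM at 90 days and at 13.9 and 4.62 CPM at 7 days. Both were also called higher at 90 days in Sertoli-like, Leydig-like and stromal-like cells, the pattern of the spermatid-high members.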
